A study of Mus musculus with 50 samples.

Results

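The transcripts described here encode the translation initiation factors (Eif1 to Eif6) and elongation factors (Eef1 and Eef2) of mouse embryonic stem cells, with 3 abundant mRNAs, Naca, Npm1 and Tpt1, that are often listed beside them. Members were the genes whose symbol begins with Eif1 to Eif6 or with Eef1 or Eef2, without Eif1a, the eIF2 alpha kinases, Eef2 kinase and pseudogenes. The rule gave 68 symbols, of which Eif3j1 and Eif3j2 had the same value in every library and were counted once, so that 67 of 19455 listed genes were members. The cells were of the KH2 line, a hybrid of C57BL/6 and 129/Sv, grown in serum with LIF and plated on gelatin 48 h before treatment. Triple_KO cells were labelled as lacking Ythdf1, Ythdf2 and Ythdf3, which encode readers of the mRNA modification m6A. Ythdf1_KO, Ythdf2_KO and Ythdf3_KO cells were each labelled as lacking 1 of these genes, and WT cells served as the control. All 5 genotypes were collected at 0, 4 and 8 h of 5 µM actinomycin D, which blocks transcription, with 4, 2 and 4 libraries at these times from replicates A and B. Whether A and B came from separate cultures is not stated in the labels, and p-values measure only the spread between these samples, which may be technical. The number of clones behind each genotype and the edited part of each gene are not given in the sources used here.

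Translation starts when an initiation factor complex brings the initiator tRNA to the small ribosomal subunit, another complex binds the mRNA cap, and the subunit scans to a start codon. Elongation factors then deliver aminoacyl-tRNAs and move the ribosome along the mRNA. Many of these factors, like ribosomal proteins, are encoded by mRNAs that begin with a run of pyrimidines, called a TOP (terminal oligopyrimidine) tract, through which growth signals control their translation. In embryonic stem cells translation is known to be held below that of differentiating cells.

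Levels are in FPM, the reads counted near the 3′ end of a transcript scaled to the reads of the library, so they rise and fall relative to the library total. Library totals were 796921 to 2341410 reads, and duplicate libraries were averaged before testing, so that n = 2 replicates per genotype and time. Listed genes took up 43.7 to 45.3% in Triple_KO and 42.4 to 43.9% of the library in WT cells at 0 h. At 8 h they took up 39.5 to 43.0% in Triple_KO and 32.9 to 33.4% in WT cells. Reads of the targeted genes were still present: at 0 h Ythdf1 averaged 56.9 FPM in Ythdf1_KO against 57.2 in WT, Ythdf2 averaged 33.1 in Ythdf2_KO against 51.5 in WT, and Ythdf3 averaged 23.8 in Ythdf3_KO against 23.2 in WT. In Triple_KO at 0 h Ythdf1 averaged 42.5 FPM, Ythdf3 21.5, and Ythdf2 86.2 (71.8 to 97.3), above the WT range of 40.5 to 58.6. At 8 h Ythdf2 averaged 45.3 FPM in Triple_KO and 10.8 in WT. These reads need not come from the edited part of a gene, so the labels could not be checked with them. The 8 stem cell markers summed to 2094 to 2192 FPM in Triple_KO and 2535 to 2696 in WT at 0 h, with Pou5f1 at 685 to 719.6 and 786 to 902 FPM. Nanog was listed at 0 to 3.38 FPM in WT. The 10 fibroblast markers summed at 0 h to 376 to 438 FPM in Triple_KO, 302 to 339 in Ythdf1_KO, 188 to 219 in Ythdf2_KO, 209 to 229 in Ythdf3_KO and 283 to 323 in WT. Among their defining genes, Lum was listed at 0 in all libraries of 0 h and Col1a1 averaged 38.4 FPM in Triple_KO and 16.2 in WT. The part of these markers in the differences below was not tested. In bulk samples fewer cells of a type and less RNA per cell cannot be told apart.

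Runs of pyrimidines lay at or near the annotated start of some members. RefSeq promoters of GRCm38.p6 were found for 52 of the 67 members. The letters searched were a run of at least 8 C or T on the sense strand, counted from its first C, which had to lie within 10 bases of an annotated start. Each line gives 12 bases before to 17 after that start base, 5′ to 3′, with the run in capitals.
Eef1a1 (chr9:78481707-78481736, minus strand): ggctccgCCCTCTTCCCgagggtgggggag
Eif3f (chr7:108934403-108934432, plus strand): gttctaggCTCTCTCTCTTTCTCggcaaga
Eif2s3x (chrX:94212634-94212663, minus strand): ccgagcattttCCTTTTCTCTCCgagcaag
Eif2s3y (chrY:1010583-1010612, plus strand): gaggccacagccaCTTCCTTCTTTCgtgag
Eif2b2 (chr12:85219469-85219498, plus strand): caccgagcggaagttgaCCTCTCTCggccc
These 5 are shown because they are an elongation factor, an eIF3 subunit, a pair of paralogs on the X and Y chromosomes and a transcript that fell steeply in actinomycin D. The run spans the annotated start base in Eef1a1, Eif3f and Eif2s3x, and begins 1 base after it in Eif2s3y and 5 bases after it in Eif2b2, so not all of these annotated mRNAs begin with it. Such a run was found at 7 of the 52 members (13.5%), at 2281 of all 27025 genes with a promoter (8.44%) and at 19 of 55 cytosolic ribosomal protein genes (34.5%). The other members with it were Eif3l and Eif4enif1. Over 8 h in WT cells the 6 tested members with the run had a median log2 change of -0.31 (-1.501 to 0.01), and the 39 without it had -0.65 (-1.95 to 0.34). Among these 39 was Eif2b5 (-0.22), whose pyrimidines run across its annotated start but have their first C more than 10 bases before it. Eef2, Eef1b2, Naca and Tpt1 were also among the 39, and only 34.5% of ribosomal protein genes matched. The 2 sets therefore do not divide TOP mRNAs from others. A match describes letters in the reference and not a measured transcript start.

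In WT cells at 0 h the members together held 1.72 ± 0.0353% of the library total (SD, n = 4 libraries), and Eef1a1, Eef2 and Npm1 made up 39.8 ± 0.519% of that. Eef1a1, which delivers aminoacyl-tRNA to the ribosome, had 2738 ± 22.4 FPM. Eef2, which moves the ribosome on by a codon, had 2145 ± 54.5 FPM, and Npm1, the nucleolar chaperone nucleophosmin, had 1946 ± 29.3 FPM. How fully the reads near each gene's 3′ end were counted is not known, so levels of different genes are given side by side without a ranking.

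Paralogs of one factor were listed at unlike levels. Eif5a, which helps the ribosome past poor peptide bond substrates, had 1024 ± 72.5 FPM, and Eif5a2 had 0.842 ± 0.282. The cap complex helicase Eif4a1 had 907 ± 48.6 FPM and Eif4a2 200.03 ± 9.9, while the scaffold Eif4g1 had 319 ± 19.8 and Eif4g3 19.3 ± 4.78. The cap-binding protein Eif4e had 38.1 ± 3.28 FPM, and its relative Eif4e2, a translational repressor, had 163 ± 10.9. The start codon factor Eif1 had 199.8 ± 22.1 FPM and Eif1b 24.0 ± 6.93. The Eif4e inhibitor Eif4ebp1 had 289 ± 25.0 FPM and Eif4ebp2 1.67 ± 1.44. For the gamma subunit of eIF2, Eif2s3x had 116 ± 4.25 FPM while Eif2s3y was listed at 0 in all 4 WT libraries, as was Eef1a2, the paralog of Eef1a1.

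In all, 56 members reached 5 FPM in 2 or more replicate means and were tested, and 11 did not. Besides Eif5a2, Eif4ebp2, Eif2s3y and Eef1a2 these were Eif2s1, Eif4g2, Eif5b, Eif4e3, Eif4e1b, Eef1akmt3 and the readthrough symbol Eef1akmt4-ece2. Eif2s1, the alpha subunit of eIF2, reached at most 2.55 FPM in any of the 50 libraries and was listed at 0 in 21. Eif4g2 reached 2.90 FPM and was at 0 in 23, and Eif5b, which joins the ribosomal subunits, reached 1.82 and was at 0 in 39. Only reads near the 3′ end were counted, so a value near 0, here or among the paralogs above, need not mean that a gene is not expressed. The 56 were chosen by level, so counts below are not of all members.

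After 8 h of actinomycin D, WT cells had less of most factor transcripts relative to the library total, but not evenly: Eef1a1, Eef2 and Tpt1 were lower by under 0.2 on the log2 scale, while Eif1, Eif4e, Eif6 and Eif4b were lower by over 1. Of the 56 members tested, 42 fell and 1 rose in limma's test at an adjusted p of 0.05, against 55.2% of all 9078 genes lower and 1.73% higher (56.9% in either direction). The members' median log2 change was -0.55, that of all genes -0.81 and that of 74 cytosolic ribosomal proteins 0.0036. Scaling to the trimmed mean of M values (TMM) or to the median of ratios in place of the library total moved the median of all genes by 0.66 and 0.62. With either, 22 members rose and 17 fell, so the direction of the smaller falls depended on the scaling. The shares of all genes called are those with the library total, here and below. Counts with another scaling have no such share beside them. With TMM 18 of the 43 changes kept their direction and their call, 12 passed in the opposite direction and 13 did not pass. Of the 43 calls 31 held whichever WT replicate was left out. Over the same 8 h in WT the 10 fibroblast markers summed to 511 to 547 FPM, against 283 to 323 at 0 h, and the 8 stem cell markers to 2258 to 2344, against 2535 to 2696.

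Among factors that bring the initiator tRNA and find the start codon, 10 of 14 tested fell and none rose, with a median of -0.81. Of all genes 55.2% were lower and 1.73% higher, and these shares stand beside each role count below. Eif1, which guards start codon choice, had 51.4, 46.1, 59.9 and 52.8 FPM in the 4 WT libraries at 8 h, against 197, 172, 226 and 203 FPM at 0 h. The groups did not overlap, and the log2 change was -1.91 ± 0.12 (adjusted p = 6.13e-22). Its paralog Eif1b changed by -1.48 ± 0.31 (adjusted p = 4.48e-05). The exchange factor eIF2B, which reloads eIF2 with GTP, had unlike subunits: Eif2b2, Eif2b4 and Eif2b1 fell by 1.501, 1.18 and 1.07, Eif2b5 by 0.22, and Eif2b3 had -0.14 ± 0.29 (adjusted p = 0.705). Eif2b5 passed as a rise with TMM scaling, and its call with the library total was lost without WT replicate A (adjusted p = 0.215). Eif2s2, the beta subunit of eIF2, had 260.3, 194, 221 and 209 FPM at 8 h, against 405, 431, 398 and 460.0 at 0 h, a change of -0.94 ± 0.07 (adjusted p = 1.40e-19). Its partner Eif2s3x had 111, 115, 127 and 113 FPM at 8 h and 121, 116, 111 and 115 at 0 h, and its change of 0.01 ± 0.11 was within the error. Eif5, the GTPase activator of eIF2, changed by -0.68 ± 0.17, which passed with both replicates and not without WT replicate A (adjusted p = 0.0547). Eif1ax, which helps scanning, changed by -0.49 ± 0.20 and lost its call without WT replicate B (adjusted p = 0.32). Eif1ad, a relative of Eif1ax, fell by 1.41. Eif2a and Eif2d, which bind initiator tRNA outside the main pathway, did not pass, at -0.22 ± 0.18 and -0.26 ± 0.16.

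The subunits of eIF3, the scaffold on the small subunit, spread widely: 8 of 13 fell, 5 did not pass, and none rose. Over all genes 55.2% were lower and 1.73% higher. Eif3a, the large scaffold subunit, had 34.3, 34.1, 27.0 and 29.9 FPM at 8 h, against 82.6, 77.7, 86.5 and 86.7 FPM at 0 h, and Eif3g had 42.2, 44.1, 59.9 and 62.5 against 148, 98.9, 139.5 and 118. All 4 libraries of 8 h lay below those of 0 h for both, with changes of -1.39 ± 0.15 and -1.26 ± 0.13 (adjusted p = 1.37e-11 and 4.44e-13). Eif3m, Eif3e, Eif3d, Eif3j1, Eif3f and Eif3h fell by 0.74, 0.67, 0.57, 0.53, 0.46 and 0.29. Eif3m and Eif3j1 lost the call when 1 WT replicate was left out (adjusted p up to 0.0503 and 0.175), and the values of Eif3j1 could equally be those of Eif3j2. Eif3l, Eif3b, Eif3c, Eif3i and Eif3k had -0.11, -0.09, 0.02, 0.04 and 0.10, none past the test. Relative to the median of all genes these 5 stood 0.70 to 0.91 higher, and with TMM scaling each of the 5 passed as a rise, as did Eif3f and Eif3h.

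Of the factors that bind the cap and unwind the mRNA, 7 of 10 tested fell and none rose. Eif4e had 7.99, 13.0, 11.8 and 6.16 FPM at 8 h, against 40.1, 41.4, 36.5 and 34.3 at 0 h. No library of 8 h reached those of 0 h, and the change was -1.91 ± 0.25 (adjusted p = 3.09e-09). Eif4b, a cofactor of the helicase, had 40.0, 37.1, 35.4 and 38.7 FPM at 8 h, against 108, 77.7, 114 and 114 at 0 h, a change of -1.41 ± 0.14 (adjusted p = 9.00e-13). The 3 Eif4a genes differed: Eif4a3, the helicase of the exon junction complex, changed by -1.28 ± 0.14, Eif4a2 by -0.999 ± 0.10 and Eif4a1 by -0.11 ± 0.05, of which the last did not pass (adjusted p = 0.0638). Eif4e2 and Eif4h, the other helicase cofactor, fell by 0.69 and 0.65. Eif4g1 changed by -0.20 ± 0.08, a call lost whichever WT replicate was left out (adjusted p up to 0.178) and turned to a rise of 0.52 by TMM scaling. Eif4g3 and the Eif4a3 relative Eif4a3l1 did not pass, at -0.40 ± 0.31 and -0.44 ± 0.47.

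All 3 tested inhibitors of the cap-binding protein fell. Eif4ebp3 had the largest fall of the 56, with 2.28, 8.03, 5.91 and 3.52 FPM at 8 h, against 31.5, 28.7, 27.1 and 27.3 at 0 h (-2.42 ± 0.31, adjusted p = 1.30e-09). Eif4ebp1, which binds Eif4e when mTOR is inactive, had 199, 248, 219 and 210.3 FPM at 8 h, against 284, 314, 257 and 303 at 0 h, a change of -0.40 ± 0.07 (adjusted p = 2.58e-06) that passed as a rise of 0.32 with TMM scaling. Eif4enif1, which carries Eif4e into the nucleus, changed by -1.37 ± 0.37, a call lost without WT replicate B (adjusted p = 0.0809).

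Eif5a was the member that rose. It had 1206, 1379, 1281 and 1316 FPM in WT at 8 h, against 1082, 928, 1078 and 1007 at 0 h, with no overlap and a change of 0.34 ± 0.05 (adjusted p = 4.66e-09). Eif6, which keeps free large subunits from joining, moved the other way, with 34.3, 35.1, 40.5 and 58.1 FPM at 8 h, against 115, 115, 117 and 112 at 0 h (-1.46 ± 0.14, adjusted p = 1.20e-13).

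The 6 tested elongation factors all fell relative to the library total, 5 of them by less than the median gene, and with TMM scaling Eef1a1, Eef2, Eef1g and Eef1d passed as a rise. Eef1a1 had 2547, 2449, 2367 and 2428 FPM at 8 h, against 2723, 2714, 2751 and 2762 at 0 h, and changed by -0.16 ± 0.03 (adjusted p = 3.94e-05). Eef2 had 1919, 2071, 1888 and 2056 FPM at 8 h, against 2205, 2079.8, 2169.9 and 2125 at 0 h, and changed by -0.11 ± 0.03 (adjusted p = 0.00265, and 0.0803 without WT replicate B). For both, each 8 h library lay below each 0 h library, and with TMM scaling both passed as a rise, of 0.56 and 0.61. The 3 subunits of the exchange complex that recharges eEF1A with GTP changed by -0.62 ± 0.04 (Eef1b2), -0.42 ± 0.05 (Eef1g) and -0.35 ± 0.07 (Eef1d). Eef1e1, a component of the aminoacyl-tRNA synthetase complex despite its symbol, changed by -1.95 ± 0.24 (adjusted p = 6.23e-10). Its WT libraries spread from 2.64 to 27.4 FPM at 8 h, against 54.1 to 61.8 at 0 h. Without WT replicate B its change was -1.01, so the size of this fall rested largely on that replicate. Of the enzymes that methylate elongation factors, 4 of 5 fell: Eef1akmt4 by 1.61, Eef2kmt by 1.40, Eef1aknmt by 1.31 and Eef1akmt1 by 1.22. Eef1aknmt and Eef1akmt1 lost the call without WT replicate A (adjusted p = 0.245 and 0.0992), and Eef1akmt2 had 0.03 ± 0.33. The 3 abundant companions fell by less than the median gene, and each passed as a rise with TMM scaling. Npm1 fell by 0.37. Naca, a chaperone of nascent chains, fell by 0.31 and lost the call without WT replicate A (adjusted p = 0.129). With TMM scaling Npm1 had 0.35 and Naca 0.41. Tpt1, the translationally controlled tumour protein, fell by 0.12, lost whichever replicate was left out (adjusted p up to 0.237).

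**Figure D1:**
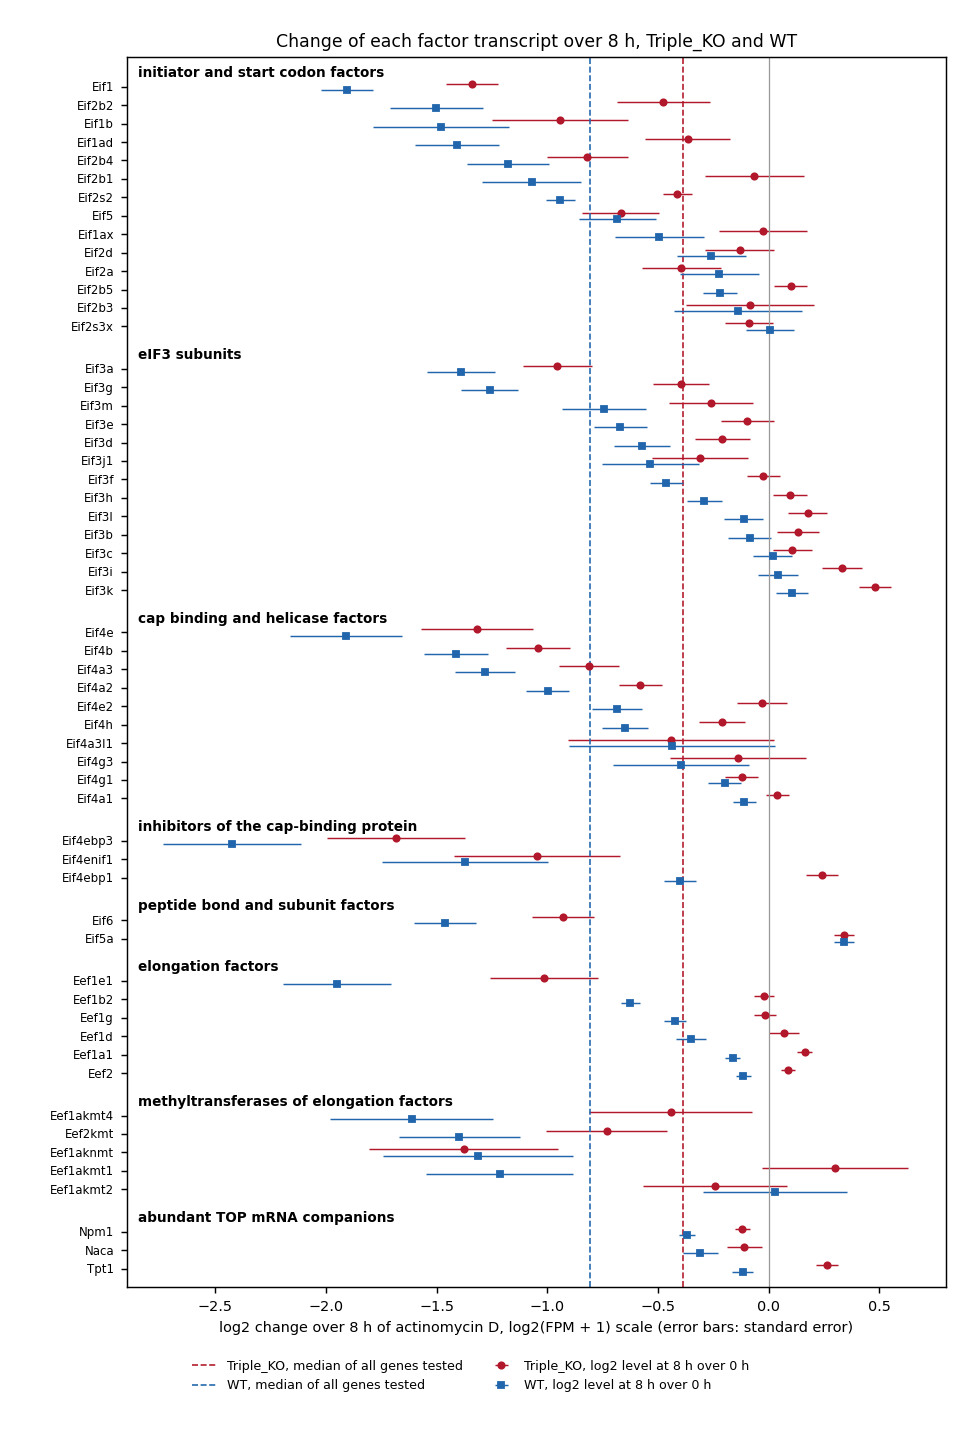
Log2 change over 8 h of actinomycin D (x axis, log2(FPM + 1) scale, scaled to the library total) of the 56 tested members, grouped by role, in Triple_KO (red circles) and WT cells (blue squares), with standard errors as bars and the median of all genes tested as dashed lines. In WT cells Eef2, Tpt1, Eef1a1 and 5 eIF3 subunits lie near 0, Eif1, Eif4e, Eef1e1 and Eif4ebp3 lie at -1.91 or below, and most Triple_KO values lie to the right of the WT value.

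The middle time point separated these groups further. At 4 h Eif1 had 126 and 132 FPM in Triple_KO, 94.5 and 97.1 in Ythdf1_KO, 76.4 and 95.6 in Ythdf2_KO, 90.1 and 98.2 in Ythdf3_KO, against 99.8 and 91.7 in WT cells, so that the 2 Triple_KO libraries lay above all others. Eif4e in WT had 40.1, 41.4, 36.5 and 34.3 FPM at 0 h, 18.1 and 16.7 at 4 h and 7.99, 13.0, 11.8 and 6.16 at 8 h, with most of its loss by 4 h. Eef1a1 in WT had 2723, 2714, 2751 and 2762 FPM at 0 h, 3078 and 3114 at 4 h and 2547, 2449, 2367 and 2428 at 8 h, and was thus highest at 4 h. The estimated log2 changes at 4 h in WT were 0.18 ± 0.03 for Eef1a1, 0.38 ± 0.05 for Eif5a and 0.29 ± 0.05 for Tpt1, against -1.05 ± 0.12 for Eif1 and -1.08 ± 0.25 for Eif4e. Eif5a was above its 0 h mean at 4 h in all 5 genotypes, by 0.25 in Triple_KO, by 0.28, 0.37 and 0.25 in Ythdf1_KO, Ythdf2_KO and Ythdf3_KO, and by 0.38 in WT.

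**Figure D2:**
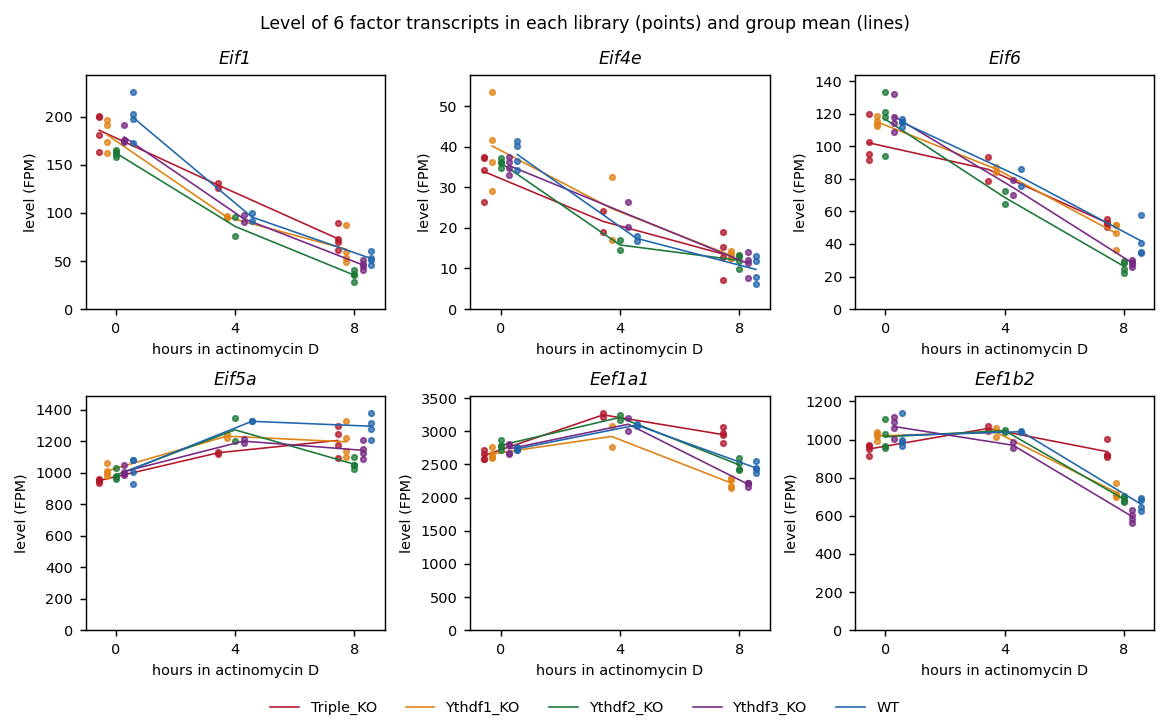
Level in FPM (y axis, from 0) of 6 transcripts at 0, 4 and 8 h of actinomycin D (x axis, genotypes shifted sideways), with points for libraries and lines joining group means. Eif1, Eif4e and Eif6 decline in every genotype, the Eif5a means at 4 and 8 h lie above those at 0 h, and for Eef1a1 and Eef1b2 the 4 Triple_KO libraries at 8 h lie above those of the other genotypes.

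Before actinomycin D, Triple_KO cells had less Eif3k and Eif4b and more Eif4ebp1, Eif2s2, Eif2b1 and Eif1ad than WT cells. Of 56 members 8 were higher and 8 lower, against 21.9% of all 8697 genes called (14.3% higher and 7.65% lower), and the members' median log2 difference was 0.01, that of all genes 0.07. Eif3k, a peripheral subunit of eIF3, had 212, 219, 211 and 219 FPM in the 4 Triple_KO libraries, against 302, 297, 285 and 301 in WT. The Triple_KO libraries lay below all WT libraries, a difference of -0.46 ± 0.06 (adjusted p = 7.91e-12). Eif3l, its partner in that part of eIF3, was higher in Triple_KO by 0.26 ± 0.07, a call lost without WT replicate A (adjusted p = 0.119). Eif4b had 80.3, 76.4, 76.1 and 80.0 FPM in Triple_KO, against 108, 77.7, 114 and 114 in WT (-0.38 ± 0.09). The groups overlapped through 1 WT library at 77.7 FPM, and without WT replicate B the call was lost (adjusted p = 0.162).

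Eif4ebp1 had 400.5, 364, 381 and 376 FPM in Triple_KO, against 284, 314, 257 and 303 in WT, with no overlap (0.40 ± 0.05, adjusted p = 1.31e-10). Eif2s2 had 502, 504, 498 and 529 FPM in Triple_KO, against 405, 431, 398 and 460.0 in WT, again without overlap (0.27 ± 0.05, adjusted p = 1.35e-06). Eif2b1, the alpha subunit of eIF2B, had 49.1, 37.6, 41.6 and 37.1 FPM in Triple_KO, against 31.5, 17.7, 30.02 and 18.9 in WT. The groups did not overlap, though duplicate libraries of both WT replicates differed, and the difference was 0.77 ± 0.16 (adjusted p = 3.62e-05). Eif1ad was higher by 0.58, and Eif2a by 0.59, the second lost without WT replicate A (adjusted p = 0.0508). Eef1akmt4 and Eef1d were higher by 0.73 and 0.22, each lost when 1 replicate was left out (adjusted p up to 0.0851 and 0.0672).

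Tpt1 was lower in Triple_KO, with 692, 692, 639 and 734 FPM against 727, 797, 738 and 812 in WT (-0.16 ± 0.04, adjusted p = 0.000618), and the ranges overlapped. The other lower members differed by 0.20 or less on the log2 scale: Eif4e2 by -0.20, Eif4h by -0.20, Eif5a by -0.10, Eef1b2 by -0.10 and Npm1 by -0.08. Each of these 5 lost its call when 1 replicate was left out (adjusted p up to 0.408, 0.502, 0.207, 0.504 and 0.234, in that order). Calls for Eif3k, Tpt1, Eif2s2, Eif4ebp1, Eif1ad and Eif2b1 held whichever replicate was left out, and all 16 held with TMM or median of ratios scaling. A fit on all times kept 7 of the 16, 5 higher and 2 lower, and without the filter on low values 6 of the 16 passed.

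In Ythdf2_KO cells at 0 h Tpt1, Npm1, Eif2s2 and Eif4ebp1 were higher than in WT cells, and these 4 calls held whichever replicate was left out. Of 56 members 8 were higher and 6 lower, against 8.2% of all genes (3.98% higher and 4.22% lower). With TMM scaling, which moved the median of all genes by 0.05, the split was 12 higher and 2 lower. Tpt1 had 972, 1043, 985 and 1057 FPM in Ythdf2_KO, against 727, 797, 738 and 812 in WT. All 4 Ythdf2_KO libraries lay above all WT libraries, a difference of 0.40 ± 0.04 (adjusted p = 3.41e-19). Npm1 had 2097, 2117, 2169 and 2152 FPM in Ythdf2_KO, against 1951, 1924, 1923 and 1985 in WT, with no overlap and a difference of 0.13 ± 0.03 (adjusted p = 4.41e-05). Naca differed by 0.19 ± 0.05, without overlap, but lost its call when 1 replicate was left out (adjusted p up to 0.177). Eif2s2 had 497, 502, 514 and 507 FPM in Ythdf2_KO, against 405, 431, 398 and 460.0 in WT (0.26 ± 0.05, adjusted p = 1.35e-05). Eif4ebp1 had 358, 351, 324 and 364 FPM in Ythdf2_KO, against 284, 314, 257 and 303 in WT (0.27 ± 0.05, adjusted p = 5.84e-05). Both groups of values lay above the WT range.

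The other 9 Ythdf2_KO calls were also each lost without at least 1 replicate. Eif2a, Eif2b1 and Eef1d were higher by 0.54, 0.47 and 0.19, with an adjusted p of up to 0.168, 0.377 and 0.217 when 1 replicate was left out. Among the lower members Eif5 had -0.39, Eif1 -0.29, Eif4h -0.27, Eif4e2 -0.25, Eif3f -0.20 and Eif4g1 -0.17. With 1 replicate left out their adjusted p reached up to 0.209, 0.206, 0.278, 0.259, 0.198 and 0.346. Eif1 had 164, 159, 161 and 166 FPM in Ythdf2_KO, against 197, 172, 226 and 203 in WT, and all Ythdf2_KO values lay below the WT range.

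Ythdf3_KO cells had more Eif4ebp1 than WT cells at 0 h, with 354, 384, 391 and 351 FPM, against 284, 314, 257 and 303 in WT, and no overlap (0.36 ± 0.05, adjusted p = 6.85e-08). In all 3 members were higher and 1 lower, against 4.46% of all genes (2.47% higher and 1.99% lower). Under TMM scaling, which moved the median of all genes by 0.04, 8 were higher and none lower. Eif3c, a core subunit of eIF3, was higher by 0.26 and Npm1 by 0.10, and Eif3f differed by -0.18. These 3 lost their call when 1 replicate was left out (adjusted p up to 0.194, 0.179 and 0.256), and without WT replicate B 4 members were higher and none lower. In Ythdf1_KO limma called none of the 56 members, against 2.62% of all genes (1.72% higher and 0.897% lower), with 10 at an unadjusted p under 0.05 and none with edgeR on recovered reads. Eif4ebp1 had 328, 313, 351 and 311 FPM there, against 284, 314, 257 and 303 in WT (0.17 ± 0.05, adjusted p = 0.0566). Eef2 had 2139, 1986, 1999.5 and 1993 FPM in Ythdf1_KO, against 2205, 2079.8, 2169.9 and 2125 in WT (-0.08 ± 0.03, adjusted p = 0.0593), and the ranges overlapped.

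The 4 knockouts were set against the same WT libraries, so their values are given side by side. Eif4ebp1 differed from WT by 0.40 in Triple_KO, 0.17 in Ythdf1_KO, 0.27 in Ythdf2_KO and 0.36 in Ythdf3_KO. Eif2a differed by 0.59 in Triple_KO, 0.29 in Ythdf1_KO, 0.54 in Ythdf2_KO and 0.41 in Ythdf3_KO. Eif3k differed by -0.46 in Triple_KO, -0.08 in Ythdf1_KO, -0.004 in Ythdf2_KO and 0.08 in Ythdf3_KO. Tpt1 differed by -0.16, 0.04, 0.40 and -0.04 in the same order. The direct test of Triple_KO against Ythdf2_KO, added after the values of Tpt1 were seen, found 7 of 56 members higher and 6 lower, against 16.4% of all genes (11.3% higher and 5.13% lower). With TMM scaling, which moved the median of all genes by -0.11, 1 was higher and 14 lower. Tpt1 had 692, 692, 639 and 734 FPM in Triple_KO, against 972, 1043, 985 and 1057 in Ythdf2_KO, so that no libraries overlapped (-0.56 ± 0.04, adjusted p = 5.15e-34). Eif3k, Naca and Npm1 were lower in Triple_KO than in Ythdf2_KO by 0.46, 0.31 and 0.21 (adjusted p = 1.88e-11, 1.25e-06 and 6.22e-13), and Eif1ad was higher by 0.74 (adjusted p = 7.66e-07). These 5 held whichever replicate was left out and with both scalings. The other 8 calls, lower for Eif4b and Eef1a1 and higher for Eif4g1, Eif3f, Eif2b2, Eif5, Eif1b and Eef1aknmt, each lost significance without at least 1 replicate (adjusted p up to 0.0516, 0.215, 0.228, 0.145, 0.338, 0.269, 0.458 and 0.325).

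**Figure D3:**
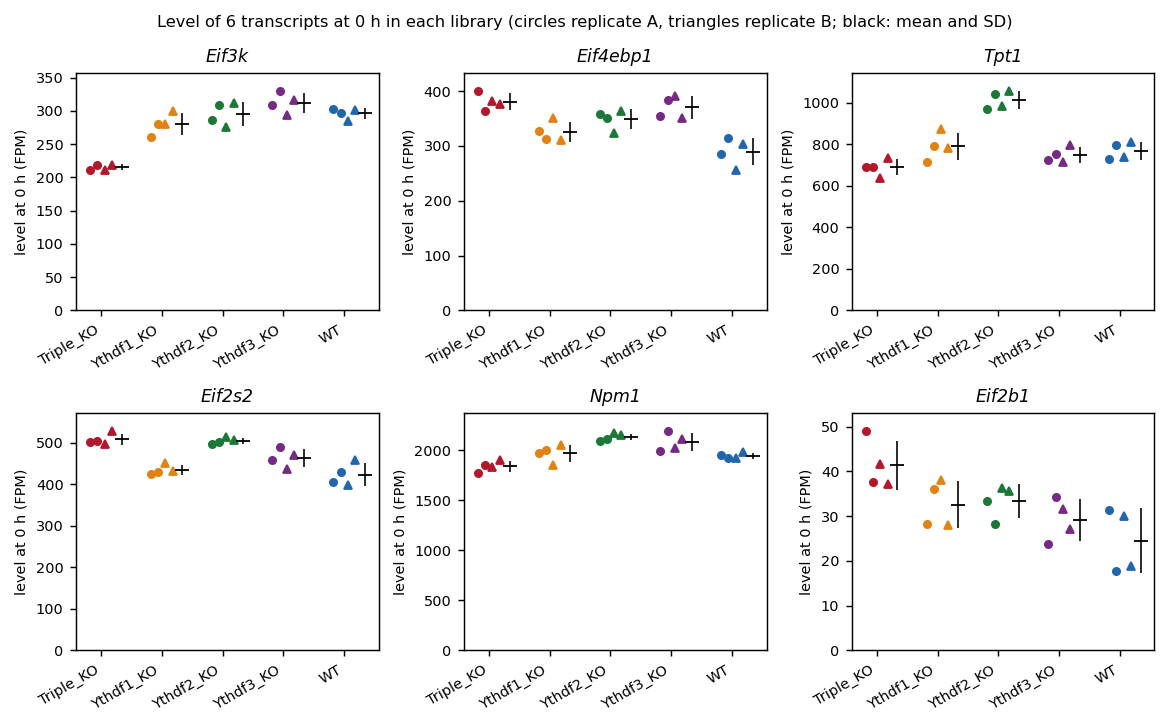
Level at 0 h in FPM (y axis, from 0) of 6 transcripts in each of the 4 libraries of Triple_KO, Ythdf1_KO, Ythdf2_KO, Ythdf3_KO and WT cells, with circles for replicate A, triangles for replicate B and the mean and SD in black. The Triple_KO libraries lie lowest for Eif3k, the Ythdf2_KO libraries highest for Tpt1 and, for Eif4ebp1, WT libraries lie below those of Triple_KO, Ythdf2_KO and Ythdf3_KO and overlap with Ythdf1_KO.

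Over 8 h of actinomycin D Triple_KO cells lost less of the factor transcripts, relative to the library total, than WT cells did, and this difference was about that of all genes. The members' median change was -0.14 in Triple_KO and -0.55 in WT, and the medians of all genes were -0.39 and -0.81. The median difference in decay, Triple_KO minus WT, was 0.38 over the members and 0.37 over all genes. Of 56 members 20 had a higher value in Triple_KO and none a lower one, against 7.22% of all genes higher, 0.022% lower and 7.24% in either direction. Members were not matched to other genes by level in this or the other comparisons, so the part of level in such shares was not tested. TMM and median of ratios scaling moved the median of all genes by -0.31 and -0.33, and left 1 member higher and 1 lower, and 1 higher and 2 lower. The listed genes held 41.1 ± 1.48% of the library in Triple_KO at 8 h and 33.2 ± 0.266% in WT (SD, n = 4 libraries). At 8 h the 10 fibroblast markers summed to 536 to 679.6 FPM in Triple_KO, 616 to 701 in Ythdf1_KO, 247 to 264 in Ythdf2_KO, 339 to 382 in Ythdf3_KO and 511 to 547 in WT, and their part in the decay differences was not tested. The summed members held 1.72 ± 0.0573% of the library in Triple_KO at 8 h and 1.41 ± 0.0158% in WT. At 0 h they held 1.7 ± 0.0304% and 1.72 ± 0.0353%.

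Eef1b2, a catalytic subunit of the eEF1A exchange complex, was the member that passed with all 3 scalings. It had 917, 1003, 918 and 908 FPM in Triple_KO at 8 h, against 693, 645, 624 and 685 in WT at 8 h, and 949, 966, 915 and 972 in Triple_KO at 0 h, against 964, 997, 988 and 1139 in WT at 0 h. At 8 h the groups were apart and at 0 h they overlapped. The decay difference was 0.60 ± 0.06 (adjusted p = 5.39e-11) and 0.25 with TMM scaling (adjusted p = 0.0133). The other elongation factors had 0.33 ± 0.05 (Eef1a1), 0.20 ± 0.05 (Eef2), 0.41 ± 0.07 (Eef1g) and 0.42 ± 0.10 (Eef1d), all past the test with the library total, and Eef1e1 had 0.94 ± 0.35, which did not pass (adjusted p = 0.0866). With TMM scaling the 4 that passed had -0.03, -0.15, 0.05 and 0.07, none past the test. With median of ratios scaling Eef2 had -0.17 and passed limma's test in the opposite direction (adjusted p = 0.00949). Eif5a had 1178, 1248, 1298 and 1097 FPM in Triple_KO at 8 h, against 1206, 1379, 1281 and 1316 in WT, and its decay difference of -0.00091 became -0.35 with TMM scaling (adjusted p = 3.76e-05), the 1 lower call there.

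Eif4ebp1 had 406, 483, 465 and 449 FPM in Triple_KO at 8 h, against 199, 248, 219 and 210.3 in WT at 8 h. Its level in Triple_KO at 8 h was above that at 0 h, with an estimated change of 0.24 ± 0.07, against -0.40 ± 0.07 in WT, and the decay difference was 0.64 ± 0.10 (adjusted p = 4.29e-06). With TMM scaling it was 0.29 (adjusted p = 0.125). Eif2s2 had 373, 373, 406 and 375 FPM in Triple_KO at 8 h, against 260.3, 194, 221 and 209 in WT (0.53 ± 0.09, adjusted p = 3.67e-05). Eif3g had 116, 100.3, 121 and 96.5 FPM in Triple_KO at 8 h, against 42.2, 44.1, 59.9 and 62.5 in WT (0.87 ± 0.18, adjusted p = 0.000585). For all 3 the Triple_KO libraries lay above the WT libraries at 8 h.

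Among the 20 members called, the largest decay differences were of weakly read transcripts. Eef1akmt1, a methyltransferase of eEF1A, had 15.4, 23.8, 29.97 and 18.8 FPM in Triple_KO at 8 h, against 4.57, 5.02, 5.06 and 7.92 in WT, a difference in decay of 1.51 ± 0.47 (adjusted p = 0.0321). Eif1ad, Eif2b2 and Eif2b1 had 1.04, 1.02 and 1.01. Eif1ad had 49.8, 55.6, 55.5 and 57.7 FPM in Triple_KO at 8 h, against 13.7, 20.1, 12.7 and 23.8 in WT, and the ranges did not overlap. Eif4e2, Eif3e, Eif1, Eif3f, Eif3h, Tpt1, Eif3k and Npm1 had differences of 0.66, 0.58, 0.56, 0.44, 0.38, 0.38, 0.38 and 0.25. The calls for Eef1b2, Eef1a1, Eef1g, Tpt1, Npm1, Eif2s2, Eif4ebp1 and Eif3g held whichever replicate was left out. The other 12 lost the call without at least 1 replicate of either arm, with an adjusted p of up to 0.075 (Eef2) to 0.345 (Eif2b1), and the count of higher members was then 10 without Triple_KO replicate A or B, 15 without WT replicate A and 13 without WT replicate B. Eif4e and Eif6, which fell steeply in WT, had decay differences of 0.59 ± 0.36 and 0.53 ± 0.20, which did not pass (adjusted p = 0.372 and 0.0931).

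**Figure D4:**
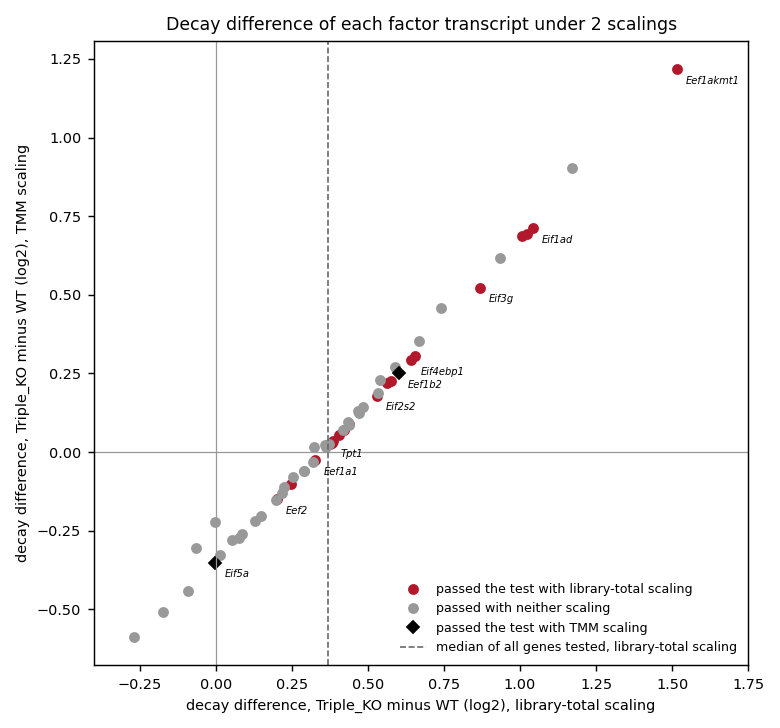
Decay difference of each of the 56 tested members, Triple_KO minus WT on the log2 scale, with scaling to the library total (x axis) and with TMM scaling (y axis), and the median of all genes as a dashed line. The 20 members that passed with the library total run from Eef2 at 0.20 to Eef1akmt1 at 1.51, and the black diamonds mark Eef1b2 and Eif5a, which passed with TMM scaling.

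Few members passed the test of a decay difference between a single knockout and WT cells. In Ythdf2_KO 2 of 56 members had a lower value and none a higher one, against 0.176% of all genes, whose median difference was -0.13. Naca had 197, 224, 233 and 207 FPM in Ythdf2_KO at 8 h, against 253, 255, 309 and 252 in WT, with a decay difference of -0.50 ± 0.11 (adjusted p = 0.0482). Npm1 had 1346, 1508, 1439 and 1429 FPM in Ythdf2_KO at 8 h, against 1619, 1424, 1456 and 1536 in WT (-0.21 ± 0.05, adjusted p = 0.0482). The Naca ranges were apart and those of Npm1 overlapped. Neither passed when any 1 replicate of Ythdf2_KO or WT was left out, when the adjusted p reached 0.432 for Naca and 0.591 for Npm1, or with TMM or median of ratios scaling, each of which moved the median of all genes by 0.11. In Ythdf1_KO limma called none of 56, against 0.0441% of all genes, with 5 at an unadjusted p under 0.05 and none with edgeR. In Ythdf3_KO limma called none, against 0.33% of all genes, with 13 at an unadjusted p under 0.05 and 1 with edgeR. Eif6 had 29.6, 24.6, 22.4 and 28.4 FPM in Ythdf2_KO, 27.5, 30.4, 29.0 and 26.1 in Ythdf3_KO and 34.3, 35.1, 40.5 and 58.1 in WT at 8 h. All libraries of both knockouts lay below those of WT, but its decay differences of -0.65 ± 0.20 and -0.57 ± 0.20 did not pass (adjusted p = 0.233 and 0.374).

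Regulators and partners of these factors, a list of 27 genes with the eIF2 alpha kinases, mTOR and its targets, release and recycling factors, were counted beside them. Of 24 tested, 14 fell and 1 rose over 8 h in WT, with a median of -0.78, beside 55.2% of all genes lower and 1.73% higher. At 0 h 1 was higher and 2 lower in Triple_KO than in WT, 1 higher and 1 lower in Ythdf2_KO, 1 higher in Ythdf3_KO, and limma called none in Ythdf1_KO (1 at an unadjusted p under 0.05). The shares of all genes called were 21.9% in Triple_KO, 2.62% in Ythdf1_KO, 8.2% in Ythdf2_KO and 4.46% in Ythdf3_KO. For decay, 2 had a higher value in Triple_KO than in WT and none a lower one, with a median difference of 0.37, and 1 had a lower value in Ythdf3_KO, beside 7.24% and 0.33% of all genes called.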

How the data were processed

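CASAVA 1.8.2, Bowtie2 and build mm10 are named per the submitters' processing notes. The authors deposited 1 table in FPM, the same unit as RPM, per RefSeq transcript. Multiply matching reads, strand and the filter's rule are not given in the sources used here. All values were whole multiples of 1 read within 0.1 read (100% of values). The 22338 transcripts were named through RefSeq of GRCm38.p6 (21729) or GENCODE (120), 489 stayed unnamed, 2169 repeats with identical values were dropped, and distinct transcripts were summed in 652 genes. Log2(FPM + 1) values of duplicate libraries were averaged. Genes that reached 5 FPM in 2 or more replicate means went into limma 3.58 (R 4.3, mean-variance trend, Benjamini-Hochberg over all genes tested, 0.05), at 0 h on 10 and for decay on all 30 replicate means. The pseudocount understates the change of low transcripts, and a read in the shallowest library is worth over 1 FPM. Decay differences are genotype by time terms. Fold change errors are standard errors, others SD. No spike-in is named, so every change is relative to the library total. Pairs of libraries were compared by a chi-square divided by its degrees of freedom. Its median was 1.46 for 20 pairs of duplicate libraries and 1.40 for 45 pairs of A and B libraries. By this measure A and B differed no more than duplicates did, so the spread behind the p-values may be that between libraries. No pair had a chi-square p above 0.05, so none was counted as 1 library. The scripts were tested on simulated data. Alternatives were another pseudocount, no filter, TMM and median of ratios scaling, edgeR 4.0 on recovered reads, the highest transcript alone, a replicate block, other sets of samples and each replicate left out, where a lone sample is assumed to vary like the others. Named with statistics were up to 10 called members each way whose replicates moved the same way and that had at least 10 FPM, and a fixed list of members from each role. Members and lists were chosen with earlier results of these data known.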

Additional observations from a re-analysis of the deposited data

Results flagged for a closer look

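Single libraries stood apart from the other 3 of their group in 7 of the 150 groups examined, and chance alone gives about 1 in 20. Eif1 had 191 FPM in a Ythdf3_KO library of 0 h against 174 to 176 in the others, and Eif2s2 had 406 FPM in a Triple_KO library of 8 h against 373 to 375. Eef1b2 had 1003 FPM in a Triple_KO library of 8 h against 908 to 918, and Eef1a1 had 2167 FPM in a Ythdf3_KO library of 8 h against 2215 to 2223. Eef2 had 2139 FPM in a Ythdf1_KO library of 0 h against 1986 to 1999.5. Eif4b had 77.75 FPM in a WT library of 0 h against 108 to 114, and Naca had 309 FPM in a WT library of 8 h against 252 to 255.

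The change over 8 h differed between Triple_KO and WT in the genotype by time test for 20 members, all higher in Triple_KO. Of all genes 7.22% were higher and 0.022% lower in that test, and their median difference was 0.37. The elongation factors Eef1b2, Eef1d, Eef1g, Eef1a1 and Eef2 had 0.60, 0.42, 0.41, 0.33 and 0.20, and the methyltransferase Eef1akmt1 had 1.51. The start codon and eIF2 factors Eif1ad, Eif2b2, Eif2b1, Eif1 and Eif2s2 had 1.04, 1.02, 1.01, 0.56 and 0.53. The eIF3 subunits Eif3g, Eif3e, Eif3f, Eif3h and Eif3k had 0.87, 0.58, 0.44, 0.38 and 0.38. Eif4e2, Eif4ebp1, Tpt1 and Npm1 had 0.66, 0.64, 0.38 and 0.25. With TMM scaling 1 of the 20, Eef1b2, passed, and 12 of the 20 lost the call without at least 1 replicate. In Ythdf2_KO the change over 8 h was lower than in WT for Naca (-0.50) and Npm1 (-0.21), against 0.176% of all genes. Neither call held when any 1 replicate of Ythdf2_KO or WT was left out.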

How the results depend on the processing

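Library totals of 796921 to 2341410 reads leave members of a few FPM with a handful of reads, and n = 2 replicates limit every test. Without the filter on low values the number of members called was 7 for Triple_KO, 3 for Ythdf2_KO and 1 for Ythdf3_KO against WT at 0 h, 6 for Triple_KO against Ythdf2_KO, 13 for the decay difference of Triple_KO and 0 for that of Ythdf2_KO. A fit on all times called 7, 4 and 1 members in Triple_KO, Ythdf2_KO and Ythdf3_KO at 0 h and 5 in Triple_KO against Ythdf2_KO. TMM scaling called 1 in Ythdf1_KO and 8 in Ythdf3_KO at 0 h, and 2 and 0 for the decay differences of Triple_KO and Ythdf2_KO, and median of ratios scaling called 1 in Ythdf1_KO at 0 h and 3 and 0 for these decay differences. A pseudocount of 0.5 FPM, the highest transcript alone and a fit on the genotypes compared each called 0 for the decay difference of Ythdf2_KO, and edgeR called 1 for that of Ythdf3_KO. The cause of these moves was not tested. Leaving out 1 replicate gave 34 to 38 calls for WT over 8 h, 11 to 13 for Triple_KO, 0 to 1 for Ythdf1_KO, 6 to 9 for Ythdf2_KO and 1 to 4 for Ythdf3_KO at 0 h, 7 to 8 for Triple_KO against Ythdf2_KO, 10 to 15 for the decay difference of Triple_KO and 0 for those of the single knockouts.

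Among the members named by rule, direction turned in WT over 8 h under TMM and median of ratios scaling for Eef1a1 (0.56 and 0.52), Eef1b2 (0.10 and 0.055), Eef1d (0.37 and 0.33), Eef1g (0.30 and 0.26), Eef2 (0.61 and 0.57), Eif4ebp1 (0.32 and 0.28), Eif4g1 (0.52 and 0.48), Naca (0.41 and 0.37), Npm1 (0.35 and 0.31) and Tpt1 (0.60 and 0.56), and under TMM for Eif5 (0.021). Among the other members called it also turned for Eif2b5 (0.50 and 0.46), Eif3h (0.43 and 0.39), Eif3f (0.26 and 0.21), Eif1ax (0.21 and 0.17), Eif3j1 (0.16 and 0.12), Eif3d (0.14 and 0.10), Eif4h (0.07 and 0.03) and Eif3e (0.043 and 0.003), and under TMM for Eif4e2 (0.03). It turned for the decay difference of Triple_KO for Eef1a1 (-0.026 and -0.051), Eef2 (-0.15 and -0.17) and Npm1 (-0.10 and -0.13). Over all alternatives of the named members 760 values kept direction and call, 255 kept direction and lost the call, and 27 turned. Same-lettered samples did not deviate in the same direction (105 pairs of groups, median r of 0.0004, highest 0.135), so A and B were not taken as pairs. The lowest r was -0.676, so in that pair of groups same-lettered samples deviated in opposite directions, and the cause was not tested. Among the groups of 0 h r ran from -0.018 to 0.039. With a replicate block 2 members were called in Ythdf1_KO at 0 h, where none was called without it, and the other counts stayed within 1.5 times.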
